A study of Mus musculus with 9 samples.

Results

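The genes described here are 4 reproductive homeobox genes of the mouse X chromosome, Rhox5, Rhox6, Rhox8 and Rhox9, and Xlr4a, an X-linked lymphocyte-regulated gene. These 5 genes are among 33212 named genes with a probe on either array platform. Every probe whose deposited symbol or older synonym is one of these names was taken, provided that its accession belongs to the same gene. Each gene had 1 probe per platform where it had any. The genes were chosen with their values on these arrays known, so those values are given as a description, with no test.

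RNA of mouse embryonic stem (ES) cells was hybridised to 9 Illumina beadchip arrays of 1 colour. The Wdr5 set held 2 arrays of a luciferase control, labelled LucR +dox, and 3 arrays of a rescue clone labelled Wdr5R4 -dox, in which an shRNA lowers Wdr5. Both came from Aniv15, an ES line that expresses the tetracycline-responsive transactivator rtTA. The Oct4 set held 2 arrays labelled Oct4 shRNA, where the hairpin targets the gene Pou5f1, and 2 labelled GFP shRNA as their control, in CCE or E14T cells, without a statement of which line was used where. All cells were grown on primary mouse embryonic fibroblast feeders with LIF. The growth text lists doxycycline at 1 ug/ml for every group, so that the absence of doxycycline in the Wdr5R4 arrays rests on their labels and titles. Wdr5R4 is 1 clone, and clone, shRNA and doxycycline differ from the control together, so their parts cannot be told apart. Nothing in the labels says that replicates came from separate cultures, so p-values measure only the spread between these samples, which may be technical.

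Rhox genes encode homeodomain transcription factors and lie in 1 cluster on the X chromosome, where they are known for expression in testis, ovary and extraembryonic tissue. Rhox5, formerly Pem, is the founding member and is expressed in Sertoli cells, placenta and ES cells. Rhox6 and Rhox9, formerly Psx1 and Psx2, are known from placental trophoblast and germ cells, and Rhox8 from the supporting cells of the gonads. Several genes of the cluster are silenced by DNA methylation in the embryo proper after implantation. Xlr4a lies elsewhere on the X chromosome, in a family related to the synaptonemal complex protein Sycp3.

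RefSeq promoters on GRCm38.p6, from 250 bases before to 50 after the gene start, were at hand for 2 of the 5 genes. They are shown because both carry the Ets core CCGGAAG, a short motif bound by Ets family factors, close to the start. The sequences read 5′ to 3′ along each gene, and capitals mark that motif or its reverse complement.
Rhox5 promoter, chrX:37754358-37754657, plus strand: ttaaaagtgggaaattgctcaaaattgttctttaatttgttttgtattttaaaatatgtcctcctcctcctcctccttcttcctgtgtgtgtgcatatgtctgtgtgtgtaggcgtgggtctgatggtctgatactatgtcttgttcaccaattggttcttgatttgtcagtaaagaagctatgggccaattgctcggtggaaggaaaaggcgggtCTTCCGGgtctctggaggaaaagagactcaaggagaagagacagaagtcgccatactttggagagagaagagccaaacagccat
Xlr4a promoter, chrX:73082458-73082757, minus strand: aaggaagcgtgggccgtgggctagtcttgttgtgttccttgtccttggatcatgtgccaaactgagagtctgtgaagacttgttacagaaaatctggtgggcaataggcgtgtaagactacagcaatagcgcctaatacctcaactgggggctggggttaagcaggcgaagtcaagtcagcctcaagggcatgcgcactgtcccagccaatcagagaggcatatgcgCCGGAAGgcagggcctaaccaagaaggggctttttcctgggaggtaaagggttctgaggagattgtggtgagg

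The motif spans bases -34 to -28 from the start in Rhox5, on the strand opposite to the gene, and bases -23 to -17 in Xlr4a, on the strand of the gene. Searched on both strands, it occurs in 8.86% of 32851 promoters of the same length, and in 8 of 25 Rhox and 5 of 10 Xlr-family promoters in the table. The Rhox genes that hold it are Rhox5 and 7 copies of Rhox2, whose promoters resemble each other and are not independent. The Xlr-family genes that hold it are Xlr4a, Xlr4b and Xlr4c, and Xlr5a and Xlr5b. Their promoters likewise resemble each other within each of these sets and are not independent. Neither promoter holds the octamer ATGCAAAT (1.74% of all promoters), the GC box GGGCGG (35.7%) or the E-box CACGTG (7.15%). The motif letters contain 1 CG dinucleotide, the base pair step that DNA methylation acts on. The Rhox5 window has 5 CG and the Xlr4a window 8, against a median of 7 over all promoters. These matches describe letters in a window and say nothing about binding or methylation, which were not measured.

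The targeted genes were lower where the labels name them. Wdr5, a WD-repeat subunit of the histone H3 lysine 4 methyltransferase complexes, had intensities of 987.9 and 1096.9 in the luciferase control and 463.7, 459.1 and 427.3 in the knockdown. Its normalized log2 signal fell by 0.96 ± 0.07 (SE of the fit; limma, adjusted p = 0.000121). The brightest probe of Pou5f1 read 4609.3 and 4136.5 with GFP shRNA and 297.1 and 305.4 with Oct4 shRNA, and its log2 signal fell by 2.28 ± 0.15 (limma, adjusted p = 0.000685). Mean intensity over all probes was 375 to 518 per array in the Wdr5 set. It was 278 and 344 with GFP shRNA but 110 and 111 with Oct4 shRNA. The Oct4 shRNA arrays were thus dimmer, and values there are read after quantile normalization unless raw intensity is named. A group is called above background where the deposited detection score exceeded 0.95. Where no array of a group did, the fold is a lower bound for the signal as processed here. It is set against the higher of the probe's own signal and the lowest signal detected on each array.

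With Wdr5 knockdown, all 4 measurable genes of the 5 were lower, by 3.65-fold to 17.9-fold where both groups were above background. Rhox5 had raw intensities of 7827.5 and 8687.2 in the luciferase control and 1706, 1696.5 and 1536.1 in the knockdown. Each knockdown array was far below each control array, and the knockdown arrays lay close together. The normalized log2 signal of Rhox5 averaged 12.89 ± 0.02 (SD, n = 2) on the luciferase arrays against 10.76 ± 0.05 (SD, n = 3) on the Wdr5R4 arrays, a difference of -2.13 ± 0.07 in log2 or 4.38-fold. It stayed above background on every array.

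Rhox6 had intensities of 195.7 and 249.9 in the control and 12.5, 10.4 and 13.4 in the knockdown. The knockdown values were not above background, with detection scores of 0.91, 0.88 and 0.94, so the loss has only a bound. The log2 signal went from 7.68 ± 0.08 to 4.96 ± 0.08, and Rhox6 was at least 5.80-fold lower. Because Rhox6 passed the detection filter through the control arrays alone, its direction was given by that filter.

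Rhox9, the other placental homeobox gene of the group, read 412.4 and 543.9 in the control and 95, 88.6 and 85.2 in the knockdown. All 5 arrays were above background. Its log2 signal went from 8.78 ± 0.12 to 6.91 ± 0.03, a difference of -1.87 ± 0.08 or 3.65-fold.

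Xlr4a read 1918.6 and 2406.3 in the control and 97.4, 78.2 and 75.4 in the knockdown. The knockdown arrays still carried signal above background, at 5.58% of the control level after normalization. The log2 signal went from 10.98 ± 0.08 to 6.82 ± 0.08, a difference of -4.16 ± 0.08 or 17.9-fold. In the order of falls over the 9362 genes above background in both groups, Xlr4a stood in place 2, Rhox5 in place 98 and Rhox9 in place 157. The genes were picked on this contrast, so nothing is read from these places. The annotation of the Xlr4a probe lists 9 further predicted transcripts, so the signal may include near-identical copies and the assignment to Xlr4a is uncertain.

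Rhox8 gave no signal above background in this set. Its intensities were 1.3 and 3.6 in the control and 11.7, -8.2 and 9.2 in the knockdown, with no detection score above 0.95, and it was not tested. The 4 tested genes were all called lower by limma at an adjusted p under 0.05, where 30.5% of the 10119 genes tested were called lower and 68.7% were called in either direction. As the genes were picked on this contrast, nothing is read from that count.

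**Figure D1:**
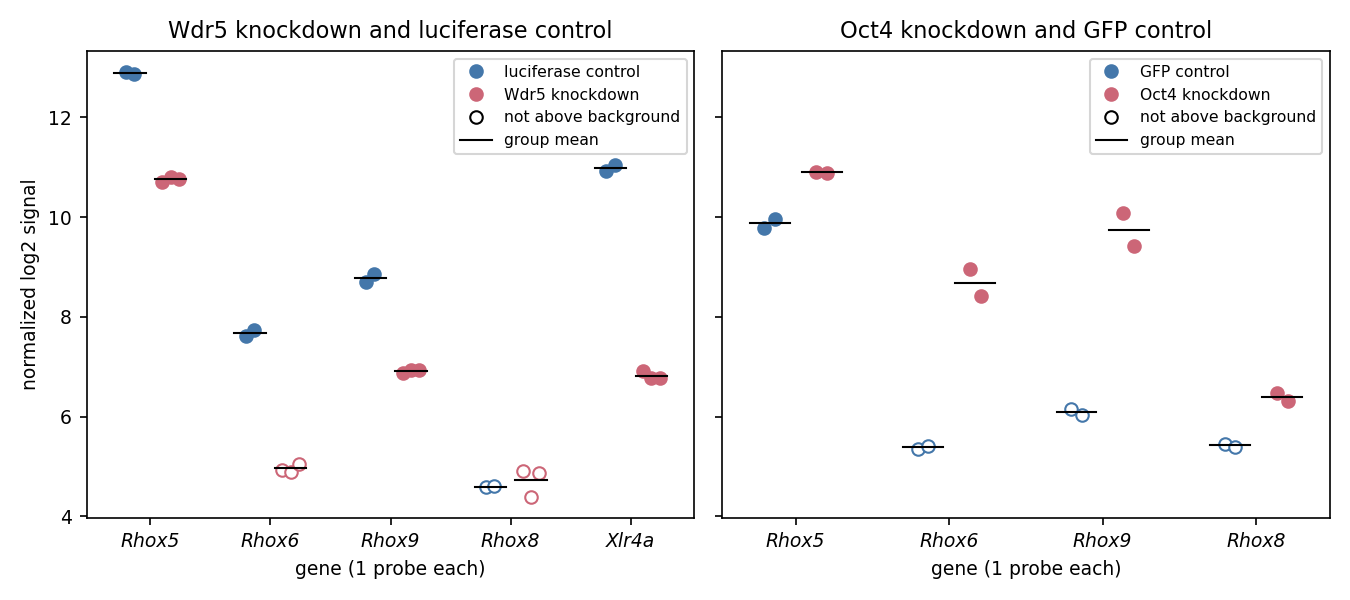
Normalized log2 signal (y axis) of each gene's probe (x axis) on every array, for the Wdr5 set on the left and the Oct4 set on the right. Points are arrays, open points were not above background, and bars are group means. Rhox5, Rhox6, Rhox9 and Xlr4a were lower on all 3 Wdr5 knockdown arrays, while all 4 Rhox genes were higher after normalization on both Oct4 knockdown arrays (without normalization between arrays Rhox5 and Rhox8 were lower there, at -0.52 and -0.18 in log2).

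The rest of the Rhox cluster, which was not chosen on these values gene by gene, was measured in part. In the Wdr5 set 12 other Rhox genes had 14 probes, of which 5 passed the detection filter, and 2 of these were called lower, both above background in the control alone, which fixes their direction. Rhox10, known from spermatogonia, read 115.2 and 139.1 in the control and 6.3, -4.7 and -1.1 in the knockdown. It was at least 3.39-fold lower (limma, adjusted p = 2.06e-05), with every knockdown array at background.

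Rhox4d read 30.2 and 33.9 in the control and -0.4, 5.5 and 2.4 in the knockdown, and was at least 1.19-fold lower (limma, adjusted p = 0.000358). The other 3 lay near background in both groups. Their log2 differences were 0.07 for Rhox12, 0.32 for Rhox3a and 0.06 for Rhox2d, with limma adjusted p of 0.592, 0.176 and 0.704. The 9 remaining probes of other Rhox genes read between -13.8 and 17.1 on every array. None of 8 probes for 6 other Xlr-family genes passed the filter, and Xlr5c exceeded the detection threshold on 1 array.

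**Figure D2:**
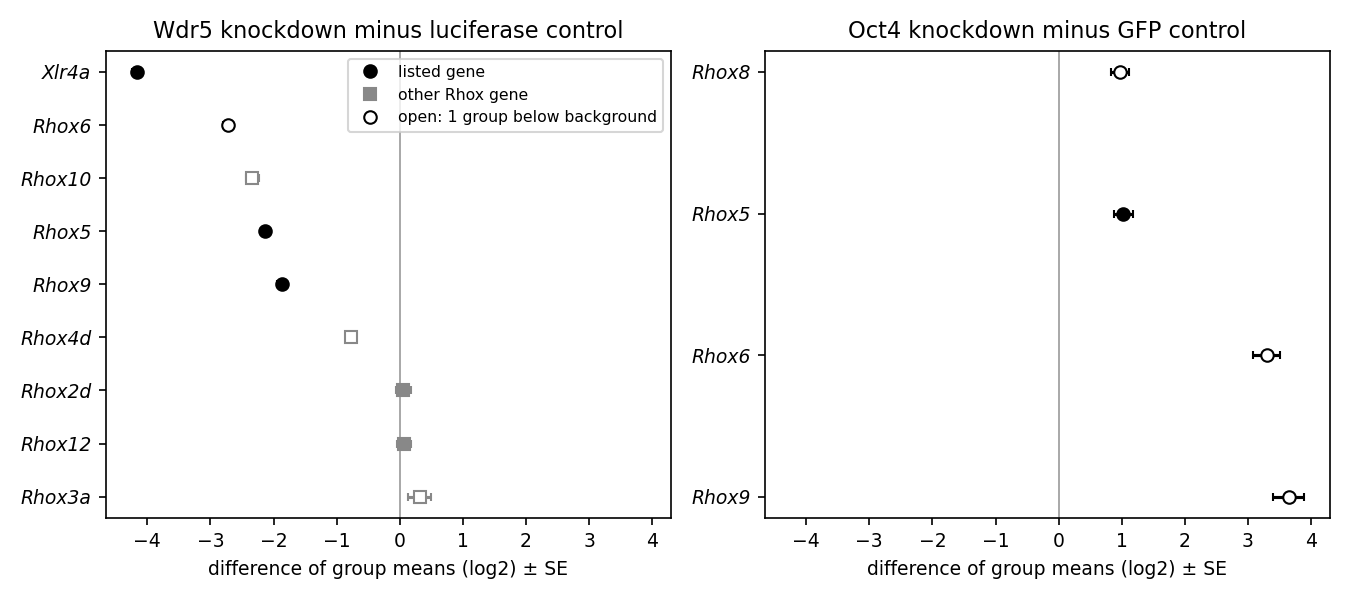
Difference of group means in log2 with the SE of the fit (x axis) for every tested Rhox and Xlr gene (y axis), for the Wdr5 comparison on the left and the Oct4 comparison on the right. Circles are the 5 listed genes where tested, grey squares other Rhox genes, and open symbols have 1 group below background. Rhox12, Rhox3a and Rhox2d sit near 0, and Xlr4a lies farthest to the left at -4.16 (without normalization between arrays Rhox5 and Rhox8 move to -0.52 and -0.18 on the right).

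The genes beside the cluster did not share one direction. Of the 10 tested genes nearest to the Rhox cluster, 5 on each side, 3 rose and 3 fell with Wdr5 knockdown, where 38.2% and 30.5% of all genes did. The log2 differences of their brightest probes ran from -0.78 to 0.68. A second kept probe of Septin6, 1 of the 10, differed by -0.98, against -0.30 for the brightest. Rnf113a1, the nearest on one side, differed by -0.09 ± 0.07 (limma, adjusted p = 0.308). Lamp2, a lysosomal membrane protein gene and the nearest on the other side, rose by 0.68 ± 0.07 (limma, adjusted p = 0.000305), although 1 other kept probe of Lamp2 went the other way at -1.07.

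Around Xlr4a, 2 of 10 genes rose and 4 fell, where 38.2% and 30.5% of all genes did. Of the falls, Pnck was at background in the knockdown. Nsdhl, a cholesterol synthesis enzyme, fell by 2.35 ± 0.16 in log2 (limma, adjusted p = 8.00e-05). Zfp275, a zinc finger gene, rose by 1.30 ± 0.07 (limma, adjusted p = 4.32e-05). Over all 336 X-linked genes tested, 124 rose and 106 fell, with a median log2 difference of 0.07 beside 0.10 for all genes.

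**Figure D3:**
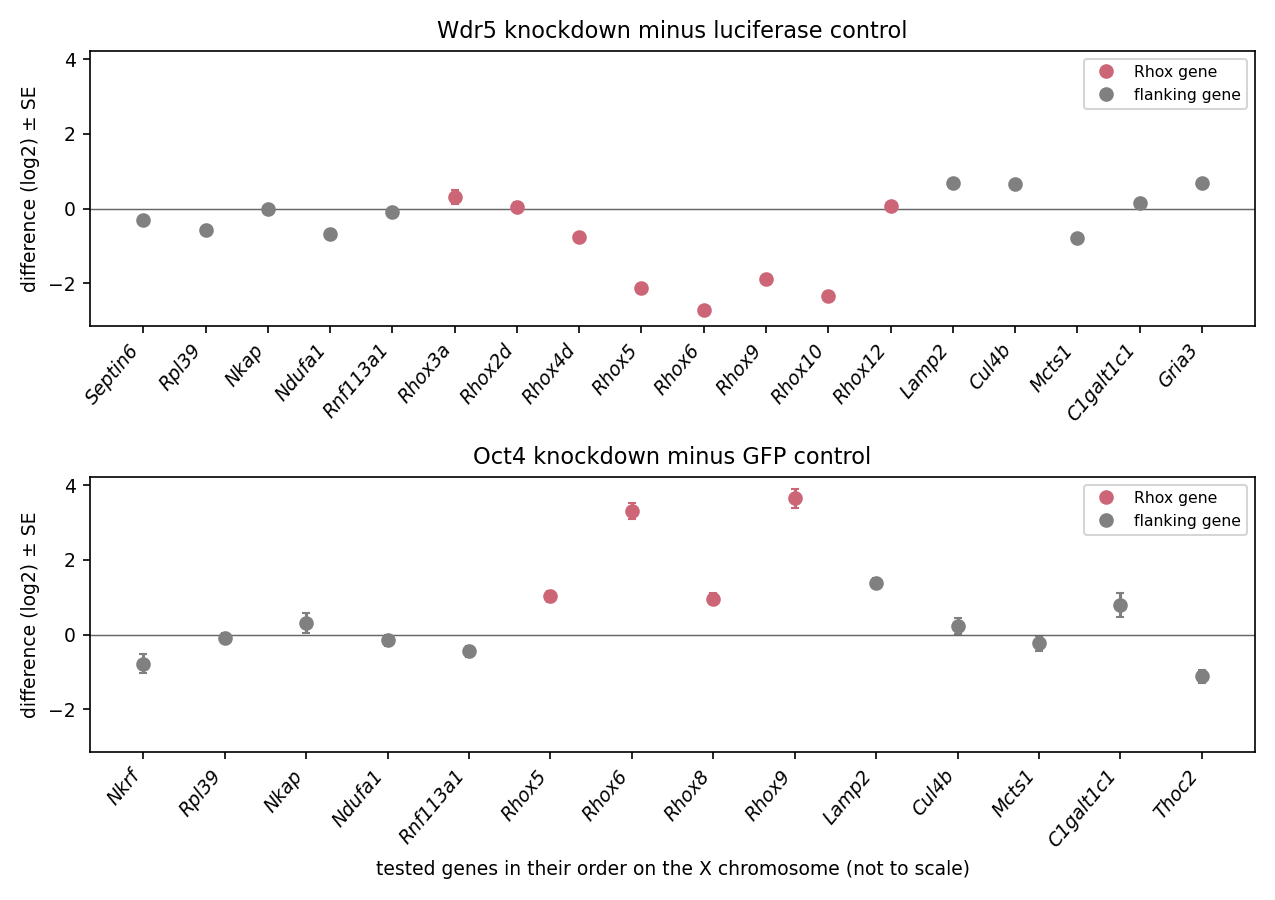
Log2 difference with the SE of the fit (y axis) for tested Rhox genes and the 5 nearest tested genes on each side, in their order on the X chromosome (x axis, not to scale), for the Wdr5 comparison (top) and the Oct4 comparison (bottom). With Wdr5 knockdown, Rhox5 and Rhox9 lie at -2.13 and -1.87, with Rhox6 and Rhox10 at background in the knockdown. The flanking genes stay between -0.78 and 0.68 by their brightest probes. With Oct4 knockdown, Rhox6 and Rhox9 lie highest, fitted against controls at background (Rhox5, Rhox8 and the flanking gene Lamp2 turn to -0.52, -0.18 and -0.17 without normalization between arrays).

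With Oct4 knockdown, Rhox6 and Rhox9 came up from background. Rhox6 read 2 and 0.8 with GFP shRNA and 250.8 and 167 with Oct4 shRNA. The GFP arrays were indistinguishable from background and the Oct4 shRNA arrays were well above it, although those arrays were the dimmer ones. The log2 signal averaged 5.39 ± 0.05 (SD, n = 2) with GFP shRNA and 8.69 ± 0.38 (SD, n = 2) with Oct4 shRNA, and Rhox6 was at least 4.47-fold higher.

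Rhox9 read 80.9 and 74.4 with GFP shRNA, with detection scores of 0.92 and 0.86, and 535.4 and 340 with Oct4 shRNA. Its log2 signal went from 6.10 ± 0.09 to 9.74 ± 0.47, and it was at least 9.30-fold higher. For both genes replicate 1 of the knockdown was the higher array. Each passed the detection filter through the knockdown arrays alone, which fixes the direction, and the raw intensities ran the same way.

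Rhox5 behaved differently on the raw and the normalized scale. Its raw intensities were 1485.6 and 1294.6 with GFP shRNA and 965.3 and 947.7 with Oct4 shRNA, lower in the knockdown at 0.688 of the control mean. Within its own array, however, the probe stood at percentiles 95.7 and 96.2 of all probes with GFP shRNA and 98.0 on both knockdown arrays. The normalized log2 signal went from 9.88 ± 0.13 to 10.90 ± 0.02, a difference of 1.03 ± 0.15 or 2.04-fold higher, but without normalization between arrays it was -0.52. Median scaling gave 0.34. The median shift of all genes was -0.53 under median scaling and -1.39 without normalization, and relative to it Rhox5 was 0.87 higher. This value is the same under both by construction, since median scaling only shifts each array by a constant. The 2 settings are therefore not separate support.

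Rhox8 read 14.5 and -3.2 with GFP shRNA and 39.4 and 31.5 with Oct4 shRNA. The knockdown arrays passed the detection threshold narrowly, with scores of 0.953 and 0.961. The normalized difference was 0.97 ± 0.14 in log2, and -0.18 without normalization between arrays, and no fold is given because the bound is under 1. Xlr4a had no probe named for it in this set and was not analysed there. The 4 tested genes were called higher by limma, where 24.3% of the 9276 genes tested were called higher and 42.4% in either direction. Since this contrast also served to pick the genes, nothing is read from the count.

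No other Rhox gene of 8 (8 probes) and no other Xlr-family gene of 6 (8 probes) passed the filter in the Oct4 set. Rhox10 had intensities of 75.3 and 60.4 with GFP shRNA and 31 and 23.1 with Oct4 shRNA, all under the detection threshold. Of the 10 genes beside the cluster, 1 rose and 1 fell, where 24.3% and 18.1% of all genes did. Lamp2 rose by 1.38 ± 0.14 in log2 (limma, adjusted p = 0.00177), but was -0.17 without normalization between arrays. Thoc2, a subunit of an mRNA export complex, fell by 1.11 ± 0.17 (limma, adjusted p = 0.0058). The 236 X-linked genes tested had a median difference of 0.07, with 57 higher and 40 lower.

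Set side by side, Rhox5, Rhox6 and Rhox9 were lower with Wdr5 knockdown and higher after normalization with Oct4 knockdown, with Rhox5 turning to -0.52 in the latter without normalization. The comparisons share no control arrays. Among 6170 genes tested in both, 4.38% were called lower with Wdr5 knockdown and higher with Oct4 knockdown. For comparison, 15.3% were called higher in both and 10.1% lower in both. With bounds used for groups at background, 25 genes were lower by at least 1 in log2 with Wdr5 knockdown and higher by at least 1 with Oct4 knockdown. Rhox5, Rhox6 and Rhox9 were among them, but they were picked on these contrasts, so nothing is read from that. Rhox5 passed narrowly, at 1.03 with Oct4 knockdown. It was 0.34 with median scaling and 0.86 with scaling over the kept probes.

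A stricter corner, at least 1.5 lower and at least 3 higher and set after the values were seen, held 2 genes by their bounds, Rhox9 and H19. H19, an imprinted long noncoding RNA transcribed from the maternal allele and abundant in extraembryonic tissue, was also the gene whose pattern over the 9 arrays lay nearest to that of Rhox9, with a root-mean-square distance of 0.14 in log2. It read 223.8 and 275 in the luciferase control and 49.2, 40.1 and 46.4 with Wdr5 knockdown. It read 66.7 and 42.8 with GFP shRNA, below the detection threshold, and 446.7 and 343.6 with Oct4 shRNA. Its log2 signal fell by 1.72 ± 0.09 with Wdr5 knockdown (limma, adjusted p = 3.32e-05), and it was at least 8.54-fold higher with Oct4 knockdown (limma, adjusted p = 0.000502). It passed the filter in the Oct4 set through the knockdown arrays alone, which fixes that direction, and it was singled out after its values were seen, so these p-values are no independent support. H19 lies on another chromosome than the Rhox cluster.

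**Figure D4:**
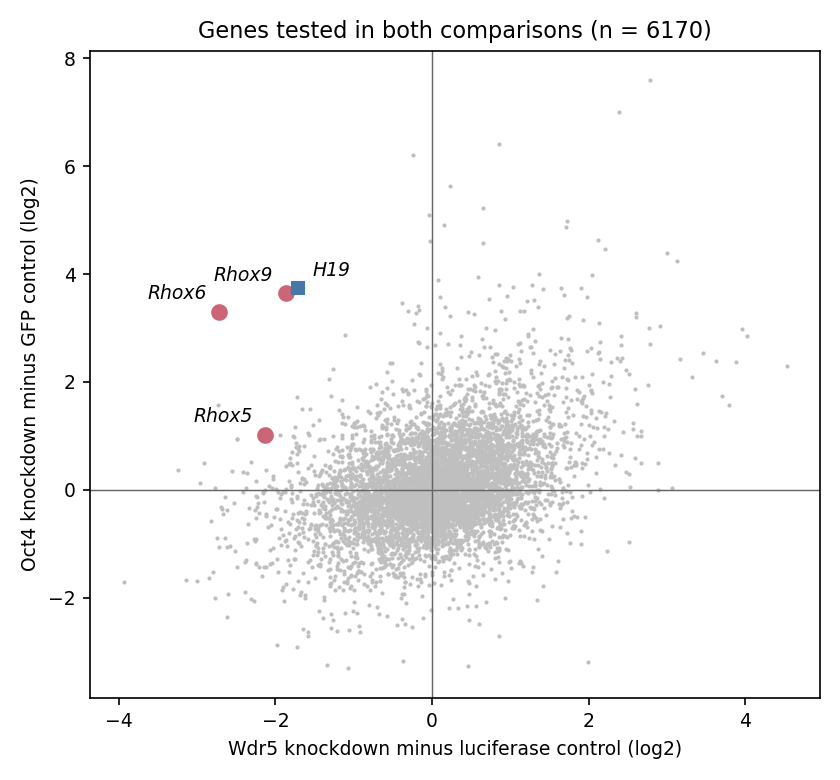
Log2 difference with Oct4 knockdown (y axis) against that with Wdr5 knockdown (x axis) for the 6170 genes tested in both, 1 grey point per gene. Rhox6, Rhox9 and H19 lie in the upper left, where their y values, and the x value of Rhox6, are fits against a group at background and not measured sizes, and Rhox5 lies below them at -2.13 and 1.03 (the latter is -0.52 without normalization between arrays).

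The likeness measure compared each gene's log2 signal, minus its control mean, over the arrays. The nearest genes to Rhox6 were Rhox9 at 0.52, H19 at 0.62 and Fabp3, a fatty acid binding protein gene, at 0.82. After H19, the nearest to Rhox9 were Rhox6 and Tuba1a, an alpha tubulin gene, at 0.63. Rhox6, Rhox9 and H19 were at background on the GFP arrays, and Rhox6 also on the Wdr5 knockdown arrays, which limits these distances. The nearest to Rhox5 were Gch1, the first enzyme of tetrahydrobiopterin synthesis, at 0.16, Sec23a, a vesicle coat gene, at 0.20 and Serpinb6c at 0.22. Second probes of Gch1 and Sec23a in the Oct4 set differed by -0.15 and -0.10, against 1.00 and 1.01 for the brightest, so this likeness holds for 1 probe of each. Xlr4a, over the 5 arrays of the Wdr5 set, lay nearest to Pfkp, a glycolytic enzyme gene, at 0.18, Calb2, a calcium-binding protein gene, at 0.35 and Gstp2, a glutathione transferase gene, at 0.37. Second probes of Pfkp and Calb2 in that set differed by -2.59 and -3.12, against -3.94 and -4.61 for the brightest. Rhox8, over the 4 arrays of the Oct4 set, lay nearest to Tnfaip1, Git2 and Kif12, at 0.01 to 0.02. It was at background on the GFP arrays and narrowly above it in the knockdown, so these distances rest on values close to background.

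Factors of DNA methylation and of germline gene silencing act on promoters of this class, and 14 of the 20 listed were tested in the Wdr5 set. Of these, 7 rose and 3 fell, with a median log2 difference of 0.17 beside 0.10 for all genes, and 1 rose and 4 fell without normalization between arrays. Over all genes tested, 38.2% rose and 30.5% fell. The falls were Max, at least 1.61-fold lower (limma, adjusted p = 0.000344) and above background in the control alone, which fixes its direction, Pcgf6, by 1.00 ± 0.09 (limma, adjusted p = 0.000221), and the histone H3 lysine 9 methyltransferase gene Setdb1, by 0.77 ± 0.09 (limma, adjusted p = 0.000691). Max and Pcgf6 encode subunits of a variant Polycomb complex that represses germline genes. Mga and E2f6, subunits of the same complex, rose by 0.70 ± 0.19 and 0.62 ± 0.07 (limma, adjusted p = 0.0181 and 0.000556), although 1 other E2f6 probe differed by -0.50. The maintenance methyltransferase gene Dnmt1 differed by 0.07 ± 0.08 (limma, adjusted p = 0.509), and the de novo enzyme gene Dnmt3b rose by 0.46 ± 0.07 (limma, adjusted p = 0.00159).

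In the Oct4 set 1 of 18 such genes rose and 9 fell, with a median of -0.43 beside -0.02 for all genes, of which 24.3% rose and 18.1% fell. Median scaling gave 0 higher and 11 lower calls, and no normalization between arrays 0 and 17 (limma). The Tet1 gene, for an enzyme that oxidises methylated cytosine, fell by 2.21 ± 0.15 (limma, adjusted p = 0.000809). Tet2 fell by 1.55 ± 0.17 and Hells, a chromatin remodeller needed for DNA methylation, fell by 1.52 ± 0.19 (limma, adjusted p = 0.00224 and 0.00346). Ehmt2, a histone H3 lysine 9 methyltransferase gene, rose by 1.05 ± 0.19 (limma, adjusted p = 0.00908), but was -0.33 without normalization between arrays.

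Germline genes known to be held silent by promoter methylation form a class to which several Rhox genes belong. With Wdr5 knockdown 8 of the 10 tested from the list fell and 1 rose, with a median of -0.85, or -0.37 with bounds for genes at background, where 30.5% of all genes fell and 38.2% rose with a median of 0.10. Tex19.1 fell by 2.39 ± 0.08 (limma, adjusted p = 1.60e-05), Dazl by 1.40 ± 0.08 and Taf7l by 1.21 ± 0.13 (limma, adjusted p = 5.39e-05 and 0.000382), while Tdrkh rose by 0.71 ± 0.08 (limma, adjusted p = 0.000536). Of the 8 that fell, 4 were below background on every knockdown array and so passed the filter through the control alone. With Oct4 knockdown 4 of 8 fell and all 8 differences were below 0, with a median of -0.59 beside -0.02 for all genes, of which 18.1% fell, while 2 were above 0 with scaling over the kept probes. There Tex19.1 fell by 1.34 ± 0.15 (limma, adjusted p = 0.00247), whereas Rhox6 and Rhox9 were higher on the same arrays.

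Markers of several cell types were called in both comparisons. Over all genes tested with Wdr5 knockdown, 38.2% rose and 30.5% fell. All 8 ES cell markers tested fell with Wdr5 knockdown, Fgf4 from above background in the control alone, and their summed normalized signal was 47227 to 50211 on the control arrays and 25766 to 26458 on the knockdown arrays. Of 6 fibroblast markers tested 5 rose and 1 fell, with Dcn above background in the knockdown alone and a summed signal of 1219 to 1238 against 3048 to 3068. Col1a1, a collagen gene of this list, rose by 3.21 ± 0.07 (limma, adjusted p = 1.27e-05), while Thy1 fell by 0.44 ± 0.09 (limma, adjusted p = 0.00507). Lum and Postn were not above background on any of these arrays, and Col1a2 was on 1 knockdown array. The cells that gave the Col1a1 signal were not tested. Trophectoderm markers split, with 4 of 9 higher and 4 lower, and a summed signal of 19782 to 19808 against 23211 to 23939. Of the other lists, 2 of 5 primitive endoderm markers rose and 2 fell, 2 of 3 germ cell markers fell, and Dhh, the 1 gonadal supporting-cell marker tested, rose by 1.19 ± 0.07 (limma, adjusted p = 5.43e-05). Sox17 and Foxa2 of the endoderm list and Mael, Sycp3 and Prdm1 of the germ cell list were not above background on any of these arrays. Nor were Sox9, Amh, Fshr and Inha of the gonadal list. In bulk RNA, fewer cells of a type and less RNA per cell cannot be told apart, and the part of these shifts in the Rhox and Xlr4a values was not tested.

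In the Oct4 set all 5 ES cell markers tested fell by their brightest probes, with a summed signal of 13995 to 18365 against 3653 to 4406. Over all genes tested, 24.3% rose and 18.1% fell. A second kept probe of Esrrb went the other way at 0.78, and Tdgf1 was not above background on any of these arrays. Trophectoderm markers, the list closest to the known placental expression of Rhox6 and Rhox9, rose in 5 of 6 tested, of which Gata3 was above background in the knockdown alone. Their median was 4.10, or 3.58 with the bound of Gata3, with a summed signal of 1545 to 1708 against 29914 to 34598. With median scaling, and also without normalization between arrays, limma called 4 higher and 1 lower. Cdx2, higher by 0.93 ± 0.20 in the main fit (limma, adjusted p = 0.0171), was then 0.44 and -0.43 and was not called. Krt18, Krt7 and Krt8, keratin genes of simple epithelium, rose by 6.42 ± 0.25, 6.22 ± 0.30 and 5.22 ± 0.16 (limma, adjusted p = 0.000381, 0.000458 and 0.000367). Of the other genes of the list, Eomes, Elf5, Hand1, Ascl2 and Plac1 were not above background on any of the 4 arrays, Esx1 was on 1 Oct4 shRNA array, and Tfap2c fell by 1.51 ± 0.15 (limma, adjusted p = 0.00178). All 5 primitive endoderm markers tested rose, with a median of 1.55, against 0.19 without normalization between arrays, where Gata6 lay below 0. Limma called 4 of the 5 with median scaling and 0 of the 5 without normalization, where 0 had an unadjusted p under 0.05. Sox7, Foxa2 and Lama1 of that list were not above background on any of these arrays. The fibroblast list had 2 tested genes, of which Vim rose by 2.50 ± 0.18 (limma, adjusted p = 0.000928) and Fn1 turned lower without normalization, while the collagen genes, Dcn, Lum and Postn were not above background. Ddx4, the 1 germ cell marker tested, fell by 0.63 ± 0.15 (limma, adjusted p = 0.0206). Gonadal supporting-cell markers, relevant to Rhox8, were called higher in 3 of 3 tested, of which Sox9 and Wt1 were above background in the knockdown alone, which fixes their direction. Of the 3, 1 was called without normalization, while Amh, Fshr, Inha and Dhh were not above background. The part of these shifts in the Rhox values was not tested.

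The authors' deposited table of fold changes, made with a normalization not given in the sources used here, had the same signs. Taken as log2, its values were -2.16 for Rhox5, -0.71 for Rhox6, -0.87 for Rhox9 and -2.65 for Xlr4a with Wdr5 knockdown. For Oct4 knockdown the authors' deposited table listed 0.73 for Rhox5, 0.82 for Rhox6, 0.15 for Rhox8 and 1.28 for Rhox9. All of these but the value of Rhox5 with Wdr5 knockdown, which differed little, lay closer to 0 than the fitted ones. The fits were -2.72 for Rhox6 with Wdr5 knockdown, and 3.30, 0.97 and 3.64 for Rhox6, Rhox8 and Rhox9 with Oct4 knockdown, each against a group at background. With the authors' array values of the Oct4 set, Rhox8 was not called by limma.

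**Figure D5:**
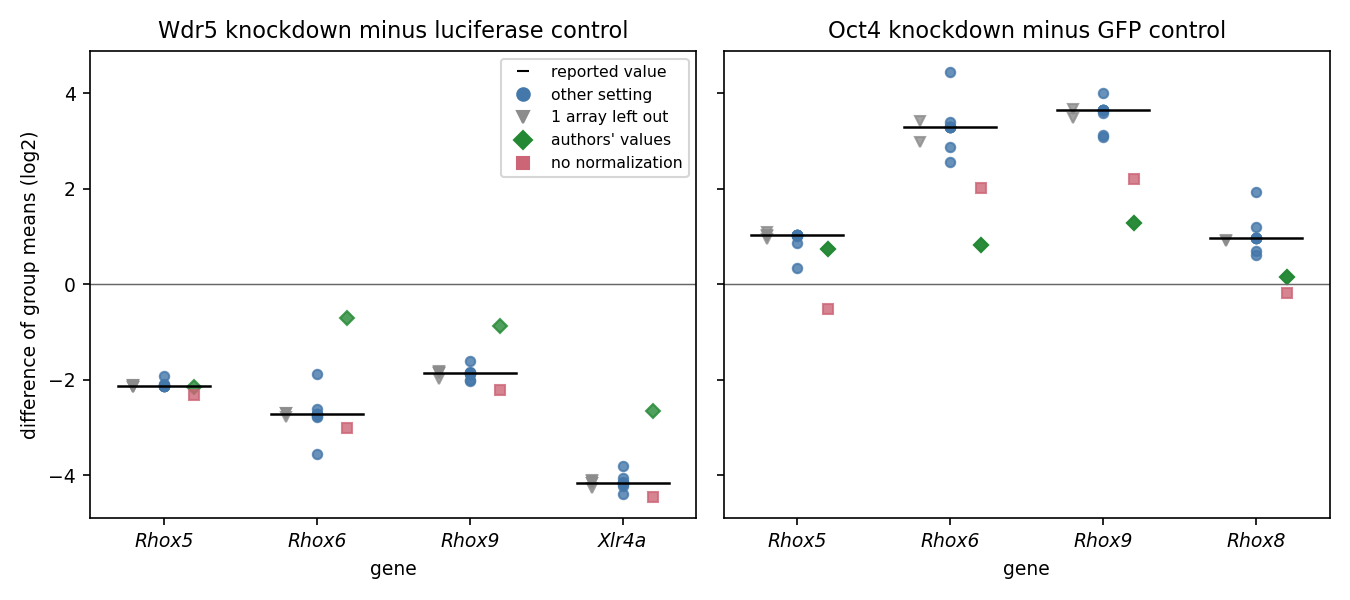
Log2 difference of group means (y axis) for each tested gene (x axis) as reported (black bar), with 1 array left out (triangles), under other settings (circles), in the authors' values (diamonds) and without normalization between arrays (squares), for the Wdr5 comparison on the left and the Oct4 comparison on the right. Every value on the left is below 0, from -4.45 to -0.71. On the right Rhox6 and Rhox9 stay above 0, having passed the detection filter through the knockdown arrays alone. Rhox5 and Rhox8 fall to -0.52 and -0.18 there without normalization between arrays.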

How the data were processed

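The arrays measured messenger RNA of mouse ES cells in 4 groups. The authors deposited probe intensity values without normalization across arrays, per the file headers. Each intensity has a deposited detection score, a fraction from 0 to 1. Normalized log2 values were also deposited by the authors, as were log2 fold changes and p-values per gene. The submitters' processing notes name limma without a version. For the normalization, scanner software and genome build, nothing is given in the sources used here.

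The intensities were taken through limma 3.58.1 in R 4.3.3 by normal-exponential background correction from the detection scores, an offset of 16, quantile normalization within each set and log2. Quantile normalization removes any change in total RNA, and the offset pulls dim genes towards 0. A probe needed a score above 0.95 on 2 or more arrays. This kept 13529 of 25697 Wdr5 set probes and 11324 of 46643 Oct4 set probes. The brightest kept probe stood for its gene, giving 10119 and 9276 genes. Symbols came from accessions through a RefSeq table of GRCm38.p6, used for names, gene order and promoters, which named 24202 and 25596 probes. A further 1495 and 21041 probes kept the deposited symbol.

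Each set was fitted separately (lmFit, eBayes) on group alone, two-sided, with Benjamini-Hochberg adjustment over all genes and a threshold of 0.05. The fit was tested on simulated data. The number of arrays limits the precision.

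The genes and gene lists were chosen with earlier results of these data known. Beside the listed genes, every measured Rhox and Xlr gene is named. Of each other list, genes were taken from the called ones with the 3 largest rises and falls. Dnmt1 and Dnmt3b were named after their values were seen, as enzymes of DNA methylation, and Cdx2 for its dependence on the scaling. The 5 nearest tested genes on each side of a locus and the 3 genes nearest in pattern were looked up. H19 was singled out among the latter after its values were seen. Alternatives were other scalings, offsets, filters, probe summaries and variance models, a replicate block, the authors' values and leaving out each array. Same-numbered arrays did not deviate together (correlations were -0.03 and -0.01 for Wdr5 and -0.36 for Oct4), so the numbers were not taken as pairs.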

Additional observations from a re-analysis of the deposited data

Results flagged for a closer look

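After normalization, Rhox5, Rhox6 and Rhox9 were lower with Wdr5 knockdown and higher with Oct4 knockdown. The genes were picked on these same contrasts, so this is a description and no support. The fitted log2 differences with Wdr5 and Oct4 knockdown were -2.13 and 1.03 for Rhox5, -2.72 and 3.30 for Rhox6, and -1.87 and 3.64 for Rhox9. The difference between the comparisons was not tested, since they used other platforms, cell lines and controls. For Rhox5 the opposite direction depends on normalization, as its raw intensity was lower with both knockdowns and its difference was -0.52 without normalization between the Oct4 set arrays. For Rhox6 and Rhox9 it held under the alternatives in which they were tested. The fitted sizes of Rhox6 in both comparisons and of Rhox9 in the Oct4 set are against a group at background. Under the processing used here they stand only for bounds, at least 5.80-fold lower and 4.47-fold higher for Rhox6 and 9.30-fold higher for Rhox9. The detection filter fixed these directions. The authors' deposited table gave smaller log2 values, -0.71 and 0.82 for Rhox6 and 1.28 for Rhox9. Such opposite calls were made for 4.38% of the genes tested in both sets.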

How the results depend on the processing

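In the Wdr5 comparison Rhox5, Rhox6, Rhox9 and Xlr4a stayed lower under every alternative run in which they were tested, from -4.45 to -0.71 in log2. Rhox6 passed the filter through the control arrays alone, so its steady direction is no independent support. Leaving out 1 array gave 5756 to 6690 genes called and 3 to 4 of the listed genes, since Rhox6 fails the 2-array filter without either luciferase array. In the Oct4 comparison Rhox6 and Rhox9 stayed higher where tested. They passed the filter through the knockdown arrays alone, so this is no independent support. Without normalization between arrays, an alternative added after the data were seen, Rhox5 turned to -0.52 and Rhox8 to -0.18. That setting called 7981 genes and 2 of the listed genes, and median scaling also called 2 (Rhox6 and Rhox9 in each). Leaving out 1 array gave 805 to 4527 genes called and 0 to 4 listed genes. The lowest counts were 805 and 0 without Oct4 knockdown replicate 1, and 1272 and 1 without replicate 2. There 8250 and 8039 genes were tested, Rhox6, Rhox8 and Rhox9 were not, and Rhox5 lost its call without replicate 1, at a difference of 1.02. The cause of the drop in calls was not tested. The share of calls that were higher was 57.3% in the Oct4 set, 17.3% under median scaling and 3.25% without normalization, and 55.6% in the Wdr5 set against 34.8% without normalization. With a replicate block 6432 and 3305 genes were called, and all 4 tested genes in each set. The crossed pairing in the Oct4 set called 4719. The authors' array values of the Wdr5 set were not run, as their probe identifiers were not matched to genes, nor was the chip as a block, as the files name no chips. Signal close to background limits Rhox8, Rhox4d and the other dim Rhox genes.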

Other observations

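The authors' deposited table gave -0.87 for Rhox9 with Wdr5 knockdown, against -1.87 in the values above, but -2.16 against -2.13 for Rhox5. Wdr5 itself fell by 0.81 ± 0.15 in log2 with Oct4 knockdown (limma, adjusted p = 0.0108). Pou5f1 fell by 0.96 ± 0.18 with Wdr5 knockdown (limma, adjusted p = 0.00448), and a second probe of it differed by -2.03. The signals of both targeted genes were therefore lower in both knockdowns, while Rhox6 and Rhox9 were lower in one and higher in the other.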
